A study of Rattus norvegicus with 12 samples.

Results

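A set of 10 genes was described in rat vein: Tnnt2, Tnni3, Myh6, Myh7, Myl2, Myl3, Myl7, Nppa, Nppb and Actc1, which are used as markers of heart muscle. They were chosen by name, by matching the RefSeq accession of each array probe to a rat gene symbol, and they are 10 of the 13903 genes that a probe named. Each had 1 probe with 1 spot on the array. RNA from veins of male rats had been measured on 12 single-colour arrays, 3 for each of 4 times. Veins of days 7, 14 and 28 came from rats in which the external jugular vein had been joined into the carotid artery as a bypass, and veins of day 0 came from rats that had no operation. Strain and age are not given in the sources used here. All 12 arrays carry a single number as replicate, so 1 to 3 are names here and pair nothing across days. The design text calls the experiments of the graft days independent, but no source says that each array held RNA of 1 animal, and the spread behind the p-values may be partly technical.

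Striated muscle contracts when myosin heads pull on actin filaments, and the troponin complex on the actin filament makes this depend on calcium. Troponin T ties the complex to tropomyosin, troponin I holds contraction off, and troponin C binds calcium. Heart, slow skeletal and fast skeletal muscle use different but overlapping sets of these proteins: Myh7 and Myl3 serve the heart ventricle and slow skeletal fibres, and Tnnt2 and Actc1 are also made in embryonic and regenerating skeletal muscle. In rodents the large veins near the heart carry a sleeve of cardiac muscle in their wall. Nppa and Nppb encode peptide hormones of heart muscle that relax vessels and promote salt excretion.

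The vein was the tissue named in the labels, and its smooth muscle markers were well above background at day 0, with a median of 10 contractile genes between 6.43 and 7.84. Values throughout are log2 of the processed intensity relative to the 75th percentile of the array, so that 0 is the brightness of that percentile, and levels of different probes are not compared. Between 71.9% and 82.6% of gene spots were well above background on each array. The scanner software marked 393 spots of day 7 replicate 3 and 460 of day 0 replicate 3 as non-uniform, where each other array had 2 to 11. The arrays came from 4 scans, and no scan held day 7 with day 0, day 14 with day 0 or day 28 with day 7. Day 0 replicate 3 was alone on its scan.

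Upstream sequences are shown for 4 of these genes, the pair that rose after grafting (Tnnt2 and Myl3) and a pair that fell at every graft day (Tnni3 and Myh6). Each is the 250 bases before the annotated start, from RefSeq on GRCr8, with capitals marking matches on either strand to the M-CAT motif CATTCC, the CArG box or the GATA motif AGATAA.
Tnnt2 (chr13:49818873-49819122, plus strand): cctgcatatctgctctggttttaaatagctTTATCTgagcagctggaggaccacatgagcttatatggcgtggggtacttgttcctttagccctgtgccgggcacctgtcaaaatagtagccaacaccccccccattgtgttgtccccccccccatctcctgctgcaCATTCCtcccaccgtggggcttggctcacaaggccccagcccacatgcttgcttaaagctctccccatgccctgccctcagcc
Myl3 (chr8:119616844-119617093, plus strand): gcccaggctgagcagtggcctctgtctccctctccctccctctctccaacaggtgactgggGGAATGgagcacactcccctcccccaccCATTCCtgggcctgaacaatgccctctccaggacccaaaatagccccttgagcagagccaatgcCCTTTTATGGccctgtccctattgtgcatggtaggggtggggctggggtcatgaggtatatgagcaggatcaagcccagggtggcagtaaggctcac
Tnni3 (chr1:78342321-78342570, plus strand): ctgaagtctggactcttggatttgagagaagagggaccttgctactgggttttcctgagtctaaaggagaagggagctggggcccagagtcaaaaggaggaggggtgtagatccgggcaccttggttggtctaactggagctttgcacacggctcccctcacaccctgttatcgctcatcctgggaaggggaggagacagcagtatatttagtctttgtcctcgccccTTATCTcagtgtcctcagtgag
Myh6 (chr15:32411698-32411947, minus strand): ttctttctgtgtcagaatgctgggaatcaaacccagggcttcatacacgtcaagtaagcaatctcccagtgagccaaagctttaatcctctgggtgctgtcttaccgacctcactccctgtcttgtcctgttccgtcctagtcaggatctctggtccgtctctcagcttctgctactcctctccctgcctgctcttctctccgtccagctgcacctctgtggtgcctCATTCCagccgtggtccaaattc
The printed window of Tnnt2 held an M-CAT match at -83 and a GATA match at -220, counted in bases from the start to the first base of the match. That of Myl3 held M-CAT matches at -189 and -161 and a CArG box at -97. Tnni3 had a GATA match at -22 and Myh6 an M-CAT match at -23. RefSeq gave 10 windows for 9 of the 10 genes, since Tnnt2 has a pair of starts. The Tnnt2 window that is not printed held no match to the M-CAT motif, the CArG box or the GATA motif. M-CAT matches lay in 4 of these 10 windows and in 12.1% of all 33469 rat windows, GATA matches in 3 of 10 and in 10.3% of all, and the CArG box in 1 of 10 and in 1.5% of all. The MEF2 site lay in 0 of 10 windows and in 3.0% of all. The E-box CANNTG, which is not capitalised, lay in 7 of 10 windows and in 65.5% of all. A match describes the letters and is no evidence of binding. Matches were present both in genes that rose and in genes that fell.

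The 10 genes did not move as a group after grafting. Tnnt2 rose at all 3 graft days, Myl3 rose at day 28, and Tnni3, Myh6, Myl2 and Nppa fell at all 3. Of 9 genes that could be tested, 1 rose and 5 fell at day 7, where 17.7% of all tested probes were called higher and 15.4% lower in limma at an adjusted p under 0.05. At day 14, 1 rose and 4 fell, against 20.1% and 17.4% of all probes. At day 28, 2 rose and 4 fell, against 17.4% and 16.5%. The median log2 change of the 9 genes was -1.40 at day 7, -1.34 at day 14 and -0.61 at day 28, and that of all 12353 tested genes was 0.00, 0.04 and 0.07. A test over all days called 6 of the 9, where 40.5% of all probes were called. The 3 comparisons share the day 0 arrays. Some calls of a lower level were lost in other settings, that of Nppa at day 7 in 15 of 23. Those of Tnni3 and Actc1 at day 7 and of Myl2 at day 28 were each lost in 7 of 24. With the scan as a fixed block no call of Tnni3 or Myl2 held. In RNA of whole vessels, fewer cells of a type and less RNA per cell cannot be told apart.

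**Figure D1:**
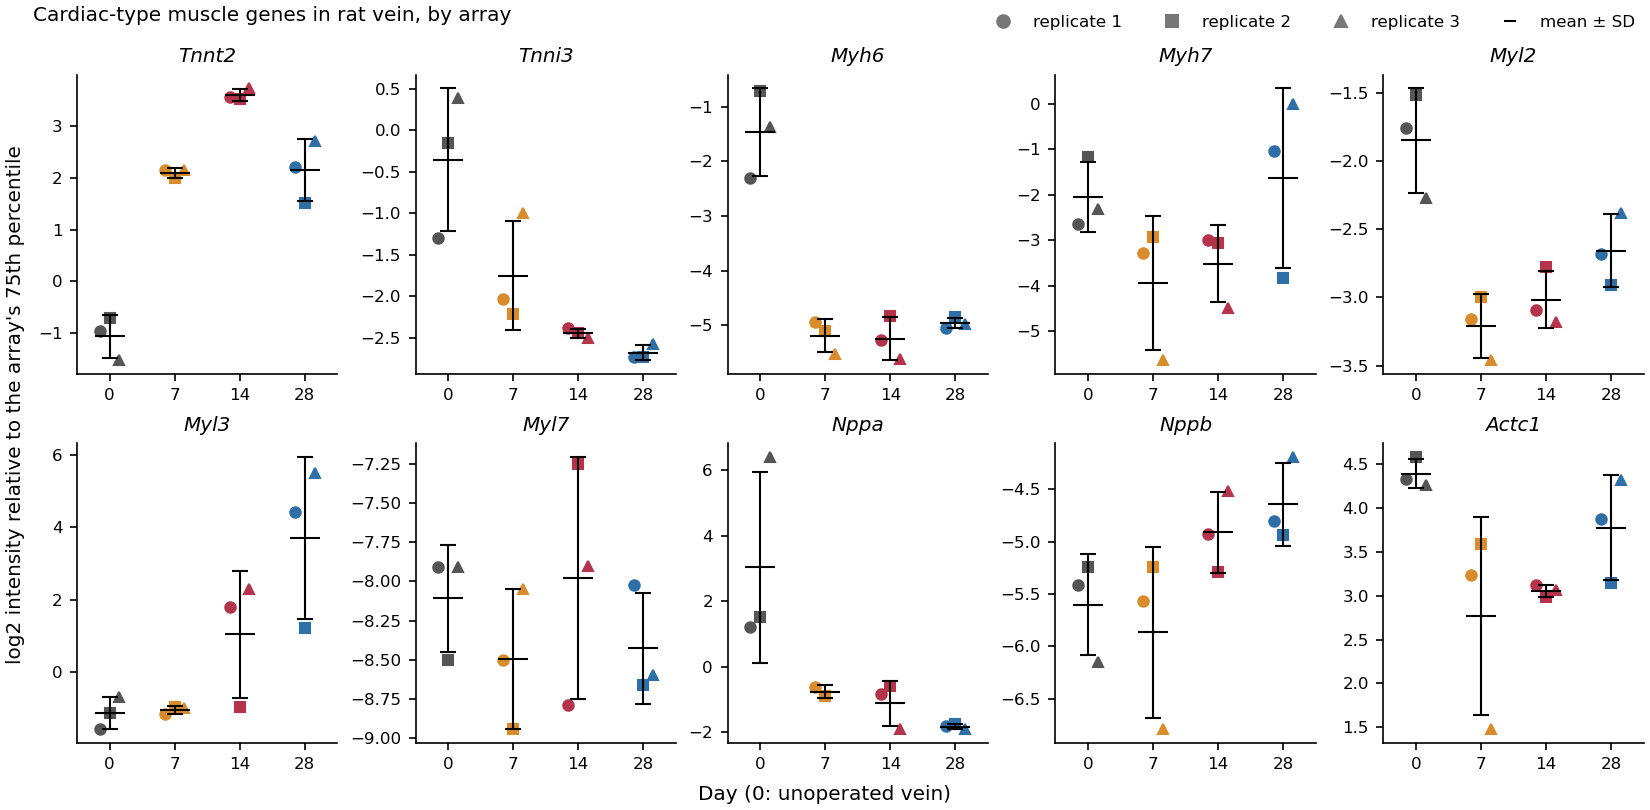
Relative log2 intensity of each of the 10 genes (vertical axes, with a scale of their own) by day (horizontal axes); points are arrays, with the replicate number as the shape, and bars are the mean ± SD. Tnnt2 lay between 1.52 and 3.73 on the graft arrays and between -1.52 and -0.71 at day 0, and Nppa at day 7 rests on 2 arrays.

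Among thin filament genes, Tnnt2 (NM_012676.1), cardiac troponin T, rose at every graft day. Its values were -0.95, -0.71 and -1.52 at day 0, 2.15, 1.99 and 2.16 at day 7, 3.56, 3.52 and 3.73 at day 14 and 2.21, 1.52 and 2.71 at day 28. All 9 graft arrays were above all 3 arrays of day 0, and the arrays of day 14 were above those of days 7 and 28. The log2 change against day 0 was 3.17 ± 0.30 (SE) at day 7, or 8.97-fold (limma, adjusted p = 5.34e-05), 4.66 ± 0.30 at day 14, or 25.4-fold (adjusted p = 4.88e-06), and 3.21 ± 0.30 at day 28, or 9.25-fold (adjusted p = 7.2e-05). These calls held in all 24 other settings tried with a test, including the scan as a fixed block (3.84, 5.30 and 3.55). Within the 1 scan that held both day 28 (1 array) and day 0 (2 arrays), Tnnt2 was 3.55 higher at day 28. No other scan joins day 0 to a graft day, so the fixed-block value of day 28 is this same difference.

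Tnnt2 also differed between graft days. It was higher at day 14 than at day 7 by 1.5 ± 0.30 (limma, adjusted p = 0.0229), the 1 call among the 9 genes where 1.38% of all probes were called higher. It was lower at day 28 than at day 14, a log2 change of -1.45 ± 0.30 (adjusted p = 0.0253), again the 1 call, where 2.08% of all probes were called lower. Within the scans that held both days the differences were 1.46 (1 array of day 14 and 3 of day 7) and -1.76 (2 arrays of each day). Both calls needed most of the arrays: leaving out any of 5 arrays ended the first (day 7 replicate 1 or 2, or any of day 14, with changes of 1.44 to 1.54 and adjusted p of 0.0632 to 0.106), and any of 5 ended the second (any of day 14, or day 28 replicate 1 or 2, with changes of -1.50 to -1.14 and adjusted p of 0.0737 to 0.101). With the scan as a fixed block the adjusted p was 0.193 for the first and 0.0463 for the second, and with normexp background correction both calls were lost at changes of 1.72 and -1.41 (adjusted p = 0.0774 and 0.101). Days 28 and 7 overlapped (0.05 ± 0.30, adjusted p = 0.957), and none of the 9 genes was called between them in limma, where 1.78% of all probes were called, although 5 had an unadjusted p under 0.05.

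Tnni3 (NM_017144.1), cardiac troponin I, ran the other way. Its values were -1.30, -0.16 and 0.39 at day 0, -2.04, -2.22 and -1.0 at day 7, -2.39, -2.45 and -2.50 at day 14 and -2.73, -2.74 and -2.58 at day 28. Days 14 and 28 lay below all of day 0, whereas day 7 replicate 3 lay above day 0 replicate 1. The log2 change was -1.40 ± 0.41 at day 7 (limma, adjusted p = 0.0251), -2.09 ± 0.41 at day 14 (adjusted p = 0.00294) and -2.33 ± 0.41 at day 28 (adjusted p = 0.00222). The day 7 call was lost without day 0 replicate 2 or 3 or without day 7 replicate 1 or 2 (-1.30, -1.03, -1.26 and -1.16), with normexp (-0.74, adjusted p = 0.247) and in a fit of only the arrays compared (adjusted p = 0.139). With the scan as a fixed block none of the 3 calls held (-0.96, -1.60 and -1.86, adjusted p = 0.788, 0.273 and 0.107).

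Actc1 (NM_019183.1), cardiac alpha-actin, was at 4.33, 4.58 and 4.26 at day 0, 3.23, 3.59 and 1.48 at day 7, 3.12, 2.98 and 3.06 at day 14 and 3.87, 3.14 and 4.32 at day 28. Days 7 and 14 lay below all of day 0, and day 28 overlapped it. The change passed the test at day 7 alone among the 3 days (-1.63 ± 0.48, limma, adjusted p = 0.0257), with -1.34 ± 0.48 at day 14 (adjusted p = 0.0502) and -0.61 ± 0.48 at day 28 (adjusted p = 0.349). Without day 7 replicate 3, the lowest array, the day 7 change was -0.98 (adjusted p = 0.0356) and the day 14 change passed (adjusted p = 0.00404), as it did without day 7 replicate 2 (adjusted p = 0.036) or day 28 replicate 2 (adjusted p = 0.0494). In 5 further settings the day 14 change also passed, at -1.41 to -1.34 (adjusted p = 0.00534 to 0.0422). The day 7 call was lost in 7 of 24 other settings, among them without day 0 replicate 2 (-1.53, adjusted p = 0.0697) and with the scan as a fixed block (-0.98, adjusted p = 0.852). Of 5 actin genes, 2, 1 and 2 fell at days 7, 14 and 28 and 1 rose at day 28, which was Acta1, skeletal alpha-actin (3.97 ± 1.18, adjusted p = 0.0261). Actins are close in sequence, and whether the Actc1 probe also takes up RNA of other actins was not tested. Acta2, on the same list of actins, had no probe.

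**Figure D2:**
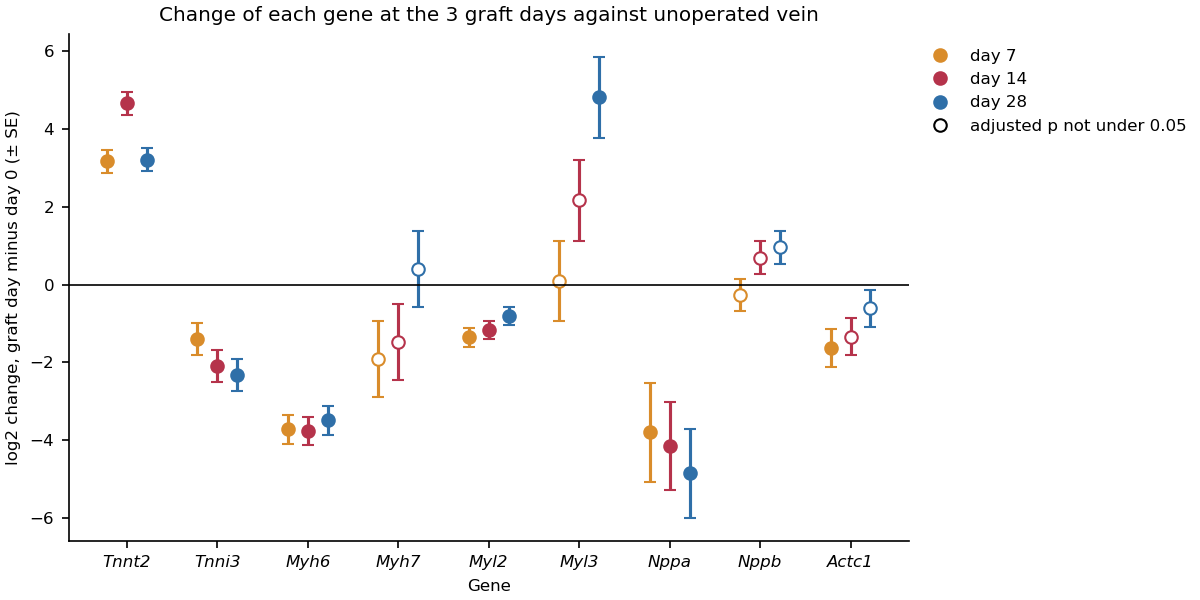
Log2 change of each tested gene against day 0 (vertical axis, ± SE) at days 7, 14 and 28, with open circles where the adjusted p was not under 0.05. Tnnt2 was higher at all 3 days, Myl3 at day 28, and Tnni3, Myh6, Myl2 and Nppa were lower at all 3.

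Tnni3 was the 1 troponin gene that fell. Of 8 troponin genes, 3 rose and 1 fell at day 7 and 7 rose and 1 fell at days 14 and 28. Tnnc1, troponin C of both heart and slow skeletal muscle, rose by 1.70 ± 0.57 at day 7 (limma, adjusted p = 0.0417), 2.22 ± 0.57 at day 14 and 1.63 ± 0.57 at day 28. Tnni1, slow skeletal troponin I, was measured above background on no day 0 array, and its level exceeded the day 0 bound at least 20.3-fold at day 14 (limma, adjusted p = 0.00554) and at least 16.3-fold at day 28 (adjusted p = 0.00897). The fast skeletal troponins Tnnc2 and Tnni2 were 8.14 ± 1.22 and 7.98 ± 1.23 higher at day 28 (adjusted p = 0.001 and 0.00112). Whether the Tnnt2 probe also takes up RNA of its relatives Tnnt1 and Tnnt3 was not tested.

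**Figure D3:**
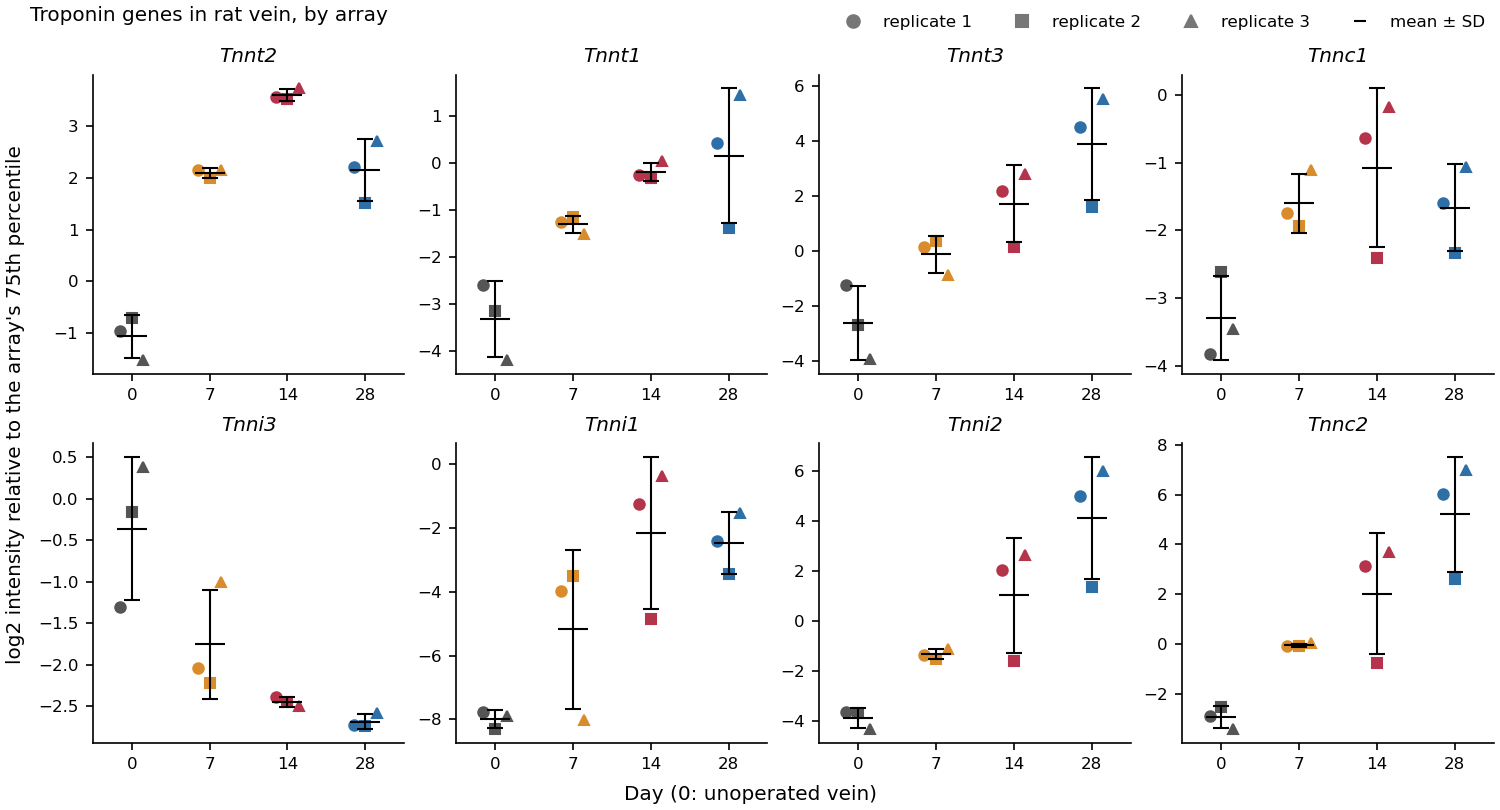
Relative log2 intensity of the 8 troponin genes (vertical axes, with a scale of their own) by day (horizontal axes), with 1 point per array and the mean ± SD. Tnni3 is the 1 gene whose arrays of days 14 and 28 lie below those of day 0, and day 14 replicate 2 is the lowest day 14 array of Tnnt3, Tnnc1, Tnni1, Tnni2 and Tnnc2 but is close to the others for Tnnt2.

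Of the myosin heavy chains, Myh6 (NM_017239.2), the fast alpha chain of heart muscle, fell at every graft day. It was at -2.31, -0.71 and -1.38 at day 0, -4.93, -5.11 and -5.52 at day 7, -5.27, -4.83 and -5.62 at day 14 and -5.04, -4.85 and -4.98 at day 28. All 9 graft arrays lay below all 3 arrays of day 0. The change was -3.72 ± 0.37 at day 7, 13.2-fold lower (limma, adjusted p = 6.84e-05), -3.77 ± 0.37 at day 14, 13.6-fold lower (adjusted p = 4.87e-05), and -3.49 ± 0.37 at day 28, 11.2-fold lower (adjusted p = 0.000147). With normexp background correction the change was -1.12, -2.06 and -2.13 and the calls of days 7 and 28 were lost (adjusted p = 0.295 and 0.0524), and with the scan as a fixed block that of day 7 was lost (-3.67, adjusted p = 0.233).

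Myh7 (NM_017240.1), the slow beta chain of ventricle and slow skeletal fibres, passed at no day. Its values were -2.65, -1.18 and -2.31 at day 0, -3.28, -2.93 and -5.64 at day 7, -3.00, -3.06 and -4.50 at day 14 and -1.05, -3.83 and -0.02 at day 28. Days 7 and 14 lay below all of day 0, while at day 28 replicates 1 and 3 lay above all of day 0 and replicate 2 below. The change was -1.91 ± 0.98, -1.47 ± 0.98 and 0.41 ± 0.98 (limma, adjusted p = 0.165, 0.264 and 0.773). Without day 28 replicate 3 the day 28 change was -0.40, and without replicate 2 it was 1.51. Of 7 heavy chain genes of the sarcomere, 1 fell at each graft day, which was Myh6, and 0, 2 and 3 rose at days 7, 14 and 28. Those that rose at day 28 were the skeletal chains Myh4 (9.13 ± 1.63, adjusted p = 0.00231), Myh1 (6.11 ± 1.22, adjusted p = 0.00409) and the embryonic chain Myh3 (4.35 ± 1.18, adjusted p = 0.0173). These chains are close in sequence, and whether a probe takes up RNA of a neighbour was not tested.

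Of the myosin light chains, Myl3 (NM_012606.2), the essential chain of ventricle and slow fibres, rose late. It was at -1.56, -1.12 and -0.67 at day 0, -1.15, -0.95 and -0.97 at day 7, 1.79, -0.95 and 2.31 at day 14 and 4.43, 1.21 and 5.48 at day 28. Day 7 overlapped day 0, 2 of 3 arrays of day 14 stood above all of day 0, and all 3 of day 28 did. The change was 0.09 ± 1.04 at day 7 (limma, adjusted p = 0.956), 2.17 ± 1.04 at day 14 (adjusted p = 0.127) and 4.82 ± 1.04 at day 28, or 28.3-fold (adjusted p = 0.00603). Without day 14 replicate 2 the day 14 change was 3.17 and passed (adjusted p = 0.0365), as it did without day 28 replicate 2 (2.17, adjusted p = 0.0441). The day 28 call held in all 24 other settings with a test (3.94 to 6.82), although its size moved with the array left out: 6.07 without day 28 replicate 2 and 3.94 without replicate 3. Against day 7 the day 28 value was 4.73 ± 1.04 higher (adjusted p = 0.0527), and it passed without day 14 replicate 2 (4.73, adjusted p = 0.0363) or day 28 replicate 2 (5.98, adjusted p = 0.0112).

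Myl2 (NM_001035252.1), the regulatory chain of ventricle and slow fibres, fell. It was at -1.76, -1.52 and -2.27 at day 0, -3.16, -3.00 and -3.46 at day 7, -3.09, -2.78 and -3.18 at day 14 and -2.68, -2.91 and -2.38 at day 28. No graft array reached the level of any day 0 array. The change was -1.36 ± 0.24 at day 7 (limma, adjusted p = 0.00197), -1.17 ± 0.24 at day 14 (adjusted p = 0.0037) and -0.81 ± 0.24 at day 28 (adjusted p = 0.0259). The day 28 call was lost without day 0 replicate 1 or 2 or day 28 replicate 1 or 2 (-0.76, -0.64, -0.80 and -0.68), and in a fit of only the arrays compared. With normexp none of the 3 held (-0.27, -0.79 and -0.65), nor with the scan as a fixed block (-1.04, -0.93 and -0.74). Myl7 (NM_001106017.1), the regulatory chain of the atrium, was not well above background on any of the 12 arrays, and it was not tested.

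The list of light chains, which also holds the kinases Mylk, Mylk2 and Mylk3, moved in both directions. Of 10 genes tested, kinases included, 1 rose and 5 fell at days 7 and 14, and 3 rose and 5 fell at day 28. The fast skeletal chain Myl1 rose by 7.78 ± 1.27 at day 28 (limma, adjusted p = 0.0015), beside Myl3. Whether the Myl3 probe also takes up RNA of Myl1 was not tested. Mylk, the kinase that activates smooth muscle myosin, was lower at day 14 with a log2 change of -4.61 ± 0.52 (adjusted p = 0.00011).

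The natriuretic peptide Nppa (NM_012612.2), made mainly by the atrium, was lower after grafting, and 1 array set the size of the change. It was at 1.21, 1.51 and 6.40 at day 0, -0.62 and -0.89 at day 7, -0.84, -0.60 and -1.90 at day 14 and -1.82, -1.76 and -1.89 at day 28. All 8 graft arrays with a value lay below all of day 0. The third value of day 7 was left out, because the scanner software marked its spot as an outlier. Its processed value was 5.14, so that with marked spots kept, a setting added after the data were seen, the day 7 change was -1.83 (limma, adjusted p = 0.43) in place of -3.80 ± 1.28 (adjusted p = 0.0468). The change was -4.15 ± 1.14 at day 14 (adjusted p = 0.0186, or 0.0708 with marked spots kept) and -4.86 ± 1.14 at day 28 (adjusted p = 0.0106, or 0.0434).

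The high Nppa value at day 0 was on replicate 3, which with day 7 replicate 3 had the many non-uniform spots. Without day 0 replicate 3 the Nppa changes were -2.12, -2.47 and -3.18 at days 7, 14 and 28 (limma, adjusted p = 0.00429, 0.00111 and 0.000612), so all 3 calls held at a smaller size. At day 7 that fit set -0.62 and -0.89 against 1.21 and 1.51, because the marked spot of day 7 replicate 3 stayed left out. The value of that spot, 5.14, lies above these day 0 values. The day 7 call was lost in 15 of 23 other settings, among them leaving out any array of days 14 or 28, or day 7 replicate 1 or 2 (changes of -3.93 to -3.66). The day 14 call was lost without day 14 replicate 3 (-3.76, adjusted p = 0.0678), with the scan as a fixed block (-2.71, adjusted p = 0.077), in a fit of only the arrays compared (adjusted p = 0.0742) and with the authors' deposited values (-3.85, adjusted p = 0.0583). The day 28 call was lost in 1 of 23 other settings, the fit of only the arrays compared (limma, adjusted p = 0.0505). Within the 1 scan that held both, day 28 (1 array) was lower than day 0 (2 arrays) by a log2 difference of -3.25. That scan does not include day 0 replicate 3. The part of the non-uniform spots in the level of that array was not tested.

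Nppb (NM_031545.1), the ventricular peptide, was dim and its changes did not pass the test at any day. Its values were -5.41, -5.24 and -6.15 at day 0, -5.57, -5.24 and -6.79 at day 7, -4.93, -5.29 and -4.51 at day 14 and -4.80, -4.94 and -4.19 at day 28. Replicate 3 of day 0 and of day 7 was not well above background. Day 28 lay above all of day 0, and days 7 and 14 overlapped it. The change was -0.27 ± 0.42, 0.69 ± 0.42 and 0.96 ± 0.42 (limma, adjusted p = 0.664, 0.216 and 0.0993). The day 28 change passed without day 7 replicate 3 (0.96, adjusted p = 0.0355), with quantile normalization (1.00, adjusted p = 0.0391) and with the authors' deposited values (1.02, adjusted p = 0.0435), and with normexp it was 0.04.

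The other genes of the natriuretic peptide system fell or did not pass the test. Of 7 genes tested in this system, 0 rose at any graft day, and 2, 4 and 2 fell at days 7, 14 and 28. At these days 17.7%, 20.1% and 17.4% of all tested probes were called higher and 15.4%, 17.4% and 16.5% lower. The same shares apply to the other gene lists. The highest change among the 7 genes was 2.98, at day 28, and was not called. The 3 largest called changes were those of Prkg1, the kinase that cyclic GMP activates in smooth muscle (-2.64 ± 0.74 at day 14, limma, adjusted p = 0.0183), Nppc, the endothelial C-type peptide (lower at day 14, adjusted p = 0.0176), and Pde5a, which degrades cyclic GMP (-1.36 ± 0.30 at day 14, adjusted p = 0.00594). Nppc was well above background on 0 of 3 arrays of day 14 and on 1 of 3 of day 0, so no size is given for its change.

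Further sarcomere genes of heart muscle, several of them shared with skeletal muscle, moved in both directions. Of 9 such genes, 1 rose and 3 fell at day 7, 3 rose and 2 fell at day 14, and 3 rose and 1 fell at day 28. These 9 are the genes with a probe among 17 listed, and Ttn, Actn2 and Myl4 are among those without. Lmod2, which lengthens actin filaments in striated muscle, was measured above background on no day 0 array and exceeded the day 0 bound at least 20.6-fold at day 28 (limma, adjusted p = 0.00634). Csrp3, a protein of the Z-disc, was 3.8 ± 1.19 higher at day 28 (adjusted p = 0.0323), and Ldb3, also of the Z-disc, had a change of -3.32 ± 1.03 at day 7 (adjusted p = 0.031). Tpm1, tropomyosin of the thin filament, which was chosen after its values were seen, counts as lower at all 3 days through its brightest probe (-1.44, -1.14 and -1.16), but of its 8 other probes 1 rose at all 3 days (1.41, 2.26 and 2.35) and 3 more rose at day 28 (2.71, 2.75 and 2.81).

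Of 13 genes of calcium handling and conduction, 1 rose and 5 fell at day 7, 1 rose and 2 fell at day 14, and 3 rose and 2 fell at day 28. Trdn, triadin of the calcium release complex, exceeded the day 0 bound at least 69.9-fold at day 28 (limma, adjusted p = 0.0072). Pln, phospholamban, was 4.36 ± 1.46 higher at day 28 (adjusted p = 0.0417), and Hrc, a calcium-binding protein of the sarcoplasmic reticulum, had a change of -3.75 ± 0.82 at day 7 (adjusted p = 0.00614). Atp2a2, the calcium pump of the sarcoplasmic reticulum, also chosen after its values were seen, counts as not called through its brightest probe (-0.14, -0.16 and -0.02 at days 7, 14 and 28). Both of its other probes fell at all 3 days, with log2 changes of -2.26 and -2.15, -2.14 and -2.11, and -1.20 and -1.18.

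Of 10 cardiac transcription factors tested, 0 rose at any graft day, where 17.7%, 20.1% and 17.4% of all probes were called higher. At days 7, 14 and 28, 2, 3 and 0 fell, against 15.4%, 17.4% and 16.5% of all probes. Myocd, the co-activator of smooth and cardiac muscle genes, had a change of -5.79 ± 1.00 at day 14 (limma, adjusted p = 0.00141). Tbx5 had a change of -3.11 ± 1.03 at day 7 (adjusted p = 0.0408), with 2.29 on day 0 replicate 3 against -2.64 and -2.49 on the other day 0 arrays, and Hand2 one of -1.31 ± 0.43 at day 14 (adjusted p = 0.0337). Hand1 and Irx4 were not well above background on any array.

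Myl3 and Myh7 are shared with skeletal muscle, and the levels of skeletal muscle genes differed widely among arrays of 1 day. The median of 13 fast skeletal genes was -1.98, -1.63 and -1.55 at day 0, 0.15, 0.13 and -1.07 at day 7, 2.02, -0.77 and 2.65 at day 14 and 4.98, 1.59 and 5.99 at day 28. Their summed level, in units of the 75th percentile, ranged from 17.9 to 20.8 at day 0, 16.4 to 32.7 at day 7, 18.2 to 109 at day 14 and 71.2 to 1020 at day 28. Of these 13 genes 0, 5 and 12 rose at days 7, 14 and 28, and of 8 slow skeletal genes 3, 5 and 7 rose. Of 9 genes of embryonic and regenerating skeletal muscle 1, 6 and 5 rose and 0, 1 and 1 fell.

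Myl3 was high on the arrays where the fast skeletal genes were high. At day 14 it stood at 1.79 and 2.31 on replicates 1 and 3 and at -0.95 on replicate 2, and at day 28 replicate 2 was again the lowest of both. Tnnt2 did not share this split at day 14: it was at 3.52 on replicate 2, where the fast skeletal median was -0.77, and at 3.56 and 3.73 on the other arrays. At day 28 Tnnt2 was lowest on replicate 2 (1.52), as the fast skeletal genes were. Tnni3 lay between -2.74 and -2.39 on all 6 arrays of days 14 and 28, whose skeletal medians ran from -0.77 to 5.99. Csrp3, Lmod2 and Trdn, which both heart and skeletal muscle express, split like Myl3. At day 14 replicates 1, 2 and 3 were at 0.57, -3.64 and 1.18 for Csrp3, at -2.51, -6.37 and -1.83 for Lmod2 and at -2.22, -7.64 and -1.75 for Trdn, and at day 28 replicate 2 was again the lowest for all 3. The part of skeletal muscle RNA in the changes of these genes and of Myl3 was not tested.

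**Figure D4:**
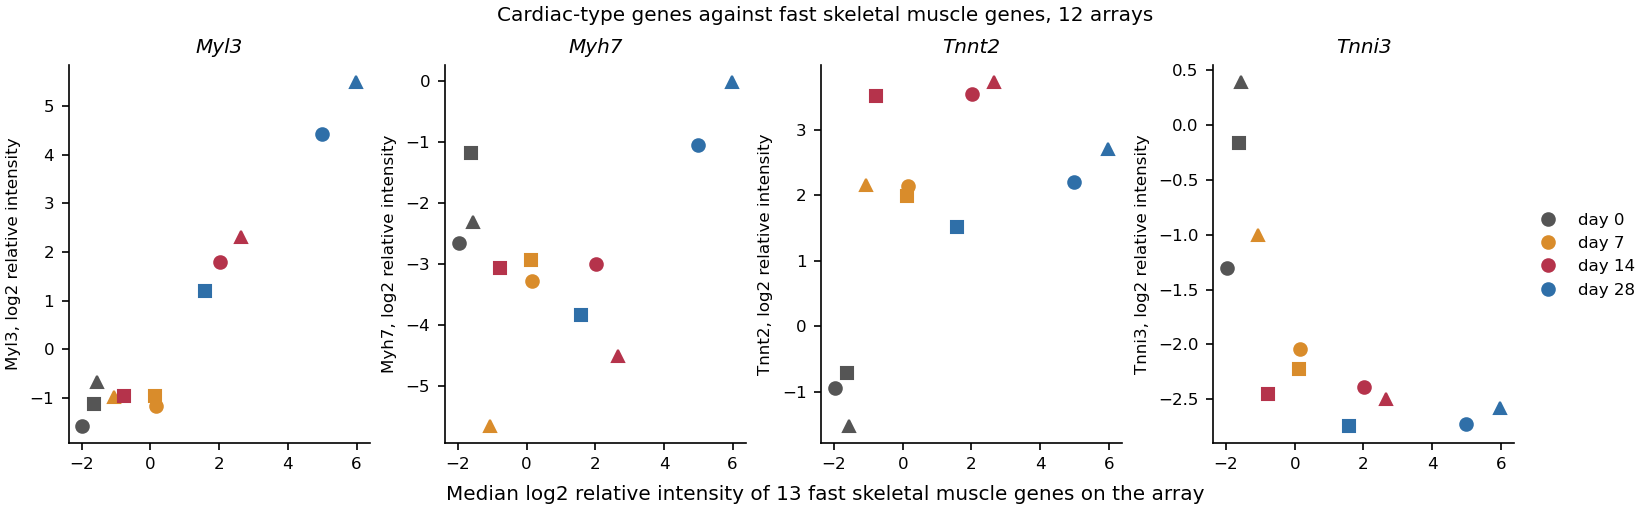
Relative log2 intensity of Myl3, Myh7, Tnnt2 and Tnni3 (vertical axes) against the median of 13 fast skeletal muscle genes on the same array (horizontal axes), with 1 point per array, colour for the day and shape for the replicate number. Myl3 is highest on the 2 arrays with medians of 4.98 and 5.99, while Tnnt2 is between 3.52 and 3.73 on all 3 arrays of day 14, whose medians run from -0.77 to 2.65.

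Myh6 was lower on the graft days together with the smooth muscle genes of the vein wall. Of 10 contractile smooth muscle genes 9 fell at each of days 7, 14 and 28, including Cnn1 (-4.99 ± 0.61), Lmod1 (-4.68 ± 0.35) and Mylk (-4.61 ± 0.52) at day 14. Their summed level ranged from 218 to 482 on the graft arrays and from 1390 to 2160 at day 0. Acta2, Myh11 and Synpo2, on the same list, had no probe. Among all genes compared, the one most like Myh6 over the 12 arrays was Myl9, the regulatory light chain of smooth muscle (r = 0.994), followed by Mpc2 (0.991) and Flna (0.988). Markers of macrophages moved the other way from Myh6, with 6, 7 and 5 of 8 higher at days 7, 14 and 28. Their median on each array was -1.18 to 1.51 at day 0 and 2.85 to 4.04 at day 7. It was 4.06 to 4.14 at day 14 and 2.55 to 3.06 at day 28, and Tnnt2 was also highest at day 14. The part of smooth muscle or macrophage RNA in the levels of Myh6 and Tnnt2 was not tested.

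**Figure D5:**
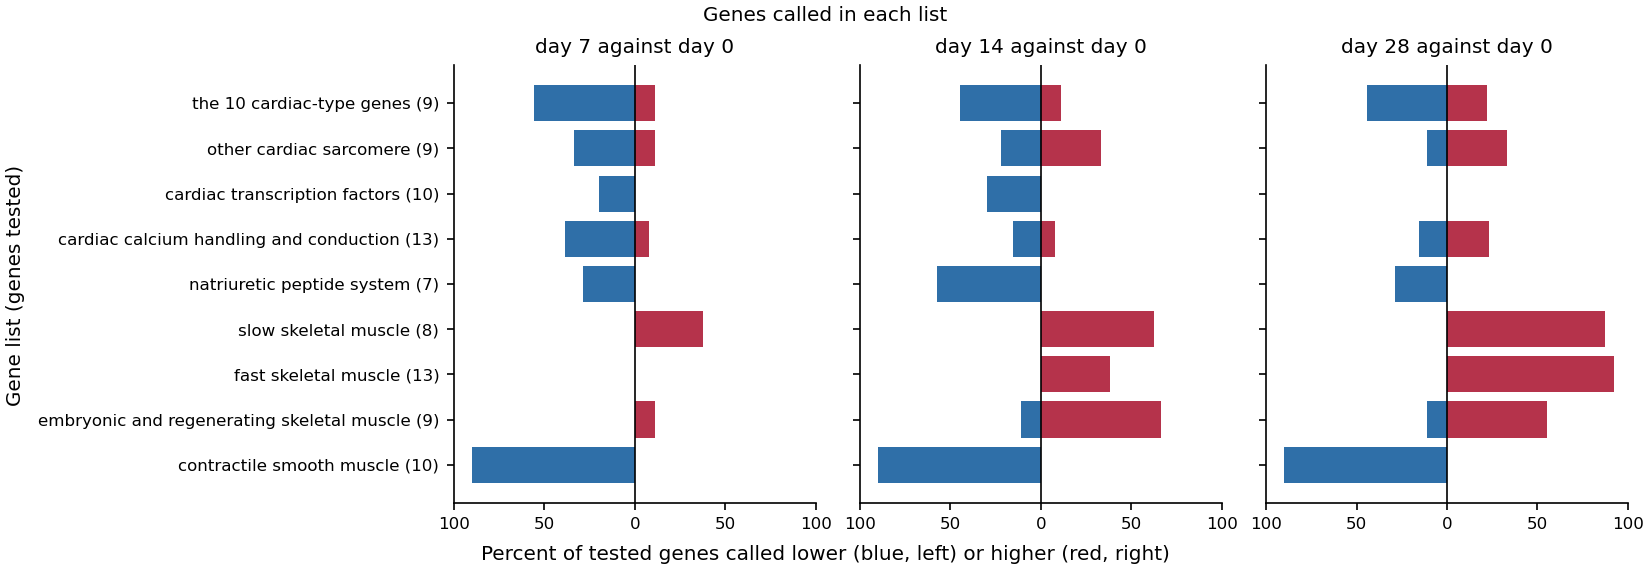
Percent of the tested genes of each list called lower (left, blue) or higher (right, red) at days 7, 14 and 28 against day 0, with the number tested in brackets. The 10 cardiac-type genes show both directions at each day, while contractile smooth muscle genes are lower and slow and fast skeletal genes are higher or not called.

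The genes whose pattern over the arrays was most like each of the others are given as a description, from 12135 genes compared over 12 arrays. The arrays share their days, so high values are common. Most like Tnnt2 were Bcl2l14 (r = 0.988), Ppt1 (0.984) and Fcna (0.983), and most like Myl3 were Smpx (0.988), Myoz1 (0.979) and Cox6a2 (0.975), which are genes of striated muscle. Tnni3 was most like Sult1c2a (0.986), Pdpr (0.984) and Gdpd2 (0.982), and Myl2 like Or51e1 (0.981), Gsta3 (0.973) and Tsen15 (0.971). Myh7 had lower values, with Macrod1 (0.901), Mrgprb5 (0.875) and Aamdc (0.86), and so did Nppb, with Zfp451 (0.948), Fam83h (0.931) and Apeh (0.929), and Actc1, with Caskin2 (0.957), Kif13a (0.954) and Mrrf (0.952). Nppa, over 11 arrays, was most like Bub3 (0.997), Psme3ip1 (0.995) and Creb3l1 (0.994), each of which reached its highest day 0 level of 6.61 to 7.23 on 1 array while its lowest there was 3.34 to 3.36. At day 7 these genes also ranged widely, from 2.1 to 6.0, 2.44 to 4.5 and 2.2 to 5.09. The array missing from the Nppa correlation is day 7 replicate 3, whose Nppa spot was marked.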

How the data were processed

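Total RNA of each vein had been depleted of ribosomal RNA and labelled with Cy3 along whole transcripts, per the labels' protocols. Spot intensity in the deposited scanner output was already background-corrected, per the file headers. The submitters' processing notes name Agilent Feature Extraction 11.0.1.1. The authors also deposited a table whose range and fit to the scanner values show log2 units. Its 12 columns each matched their own array best (r from 0.9936 to 0.9992) with medians of 7.156 to 7.164, its direction is settled by that match, and its normalization is not given in the sources used here.

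Each processed intensity was put on the log2 scale and set against the 75th percentile of its array. Control spots (1417 per array) and 7348 outlier-marked spots were left out, and replicate spots were averaged. The 21063 probes that exceeded background clearly on 3 or more of the 12 arrays entered 1 limma fit over all days (limma 3.58.1, R 4.3.3, with 8 residual and 2.32 prior degrees of freedom), with Benjamini-Hochberg adjustment over all of them and a threshold of 0.05. The fit was tested on simulated data. Symbols came from RefSeq names on GRCr8 (14294 probes with 1 symbol, 10390 with none), and the brightest probe stood for a gene. A bound ("at least") compares the brighter mean with the mean of, per dim array, the higher of the probe's value and the lowest signal well above background. The number of arrays limits the precision.

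All 10 genes are named in every comparison. From each other list at most the 3 called genes with the largest change against day 0 are named, besides troponin, myosin and actin relatives, and the 3 genes of highest correlation. The genes and the 19 lists were chosen with earlier results of these data known. The 26 alternatives changed background correction, scaling, filter, probe choice, scan, arrays and weights. Normexp was run on the median spot signal with an offset of 50, and mean spot signals were not used here. Python 3.11.15, NumPy 2.4.6, pandas 2.3.3 and Matplotlib 3.10.9 made the tables and plots.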

Additional observations from a re-analysis of the deposited data

How the results depend on the processing

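No paired analysis was possible because the labels number all arrays alike. Tnnt2 at all 3 graft days, Myh6 at day 14 and Myl3 at day 28 kept their direction and call against day 0 in all 24 settings with a test. Averaging the probes of a gene is not counted, because each of these genes has 1 probe. Settings that changed only the filter, or left out an array of a day not compared, are counted. They cannot move the size of a change, only its adjusted p. The counts of the 9 genes below stand beside the share of all probes called in the same setting. With normexp 2 were called at day 7 (14.7% of all probes), 0 between days 14 and 7 (0.261%) and 0 between days 28 and 14 (0.641%). With the scan as a fixed block 1 was called at day 7 (0.261%), 2 at day 14 (4.91%), 0 between days 14 and 7 (0.133%) and 1 over any day (3.85%). With only the arrays compared 3 were called at day 7 (13.7%). With array weights 4 were called between days 14 and 7 (50.6%), 8 between days 28 and 14 (78.0%) and 7 between days 28 and 7 (63.8%), so most probes of the array were called there too. Scaling to the median of each array called 1 between days 28 and 7 (2.29%). Leaving out 1 array gave 0 to 1 calls in each of the 3 comparisons between graft days.

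Signs turned in changes that were not called. Nppb at day 7 was 0.80 with normexp and 0.17 with the fixed block, and ran from -0.58 to 0.20 when 1 array was left out. Myh7 at day 14 was 0.55 with the fixed block, and at day 28 ran from -0.40 to 1.51 when 1 array was left out. Myl3 at day 7 ran from -0.13 to 0.32. Tnnt2 between days 28 and 7 was -0.30 with the fixed block and ran from -0.24 to 0.36. In all of these the cause was not tested. Nppb was near background and Myl7 not above it. With the normexp setting calls of Myl2, Myh6, Tnni3 and Nppa were lost, and those of Tnnt2 between graft days. That setting also changed the spot signal used and added an offset. The parts of the signal, the offset and the background correction in these losses were not tested separately. The scan as a fixed block ended calls of Tnni3, Myl2, Myh6, Nppa and Actc1, and of Tnnt2 between days 14 and 7.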

Other observations

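Markers of the other cells of the vein moved in both directions. Of 5 adipocyte genes 4, 5 and 4 fell at days 7, 14 and 28, including Adipoq, the fat cell hormone adiponectin (-8.75 ± 0.44 at day 7, limma, adjusted p = 1.52e-06). Of 6 endothelial genes 4, 4 and 2 fell and 0, 0 and 1 rose. Of 5 fibroblast genes 4, 4 and 3 rose and 0, 1 and 0 fell, and of 4 erythroid genes 2, 1 and 2 rose. Of 6 Schwann cell genes 1, 2 and 0 fell, 1 of them Mbp at day 14 (-3.47), for which 1 of 5 other probes gave 0.21.

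Myog, a transcription factor of skeletal muscle differentiation, was at 3.19 on day 0 replicate 3 against -2.12 and -1.58 on the other arrays of day 0, and at 1.04 on day 7 replicate 3 against -1.96 and -1.96. It was chosen after its values were seen.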
